A study of Mus musculus with 14 samples.

Results

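Dhodh, Tk1, 2810433K01Rik, Nsmce4a, Exosc8, Ftsj2, Rce1, Sephs1 and Cmklr1 are 9 mouse genes whose response to doxorubicin was lower in wild-type (wt) than in p53-null (p53-/-) fibroblasts. They are 9 of 20207 genes listed for every library and of 11177 with enough reads to be tested. All 9 had enough reads. The difference of responses (treated over untreated in wt, minus treated over untreated in p53-/-, as log2 folds) chose them: 50 genes were called lower in it (limma fit over all tested genes, adjusted p under 0.05), 46 of these had a mean level of at least 3 on the log2 CPM scale, and the members are 9 of the 10 most negative of those 46. Just inside the limit stood Ftsj2 (-1.73) and Tk1 (-1.72), and just outside it Apitd1 (-1.71) and Tbl2 (-1.71). The difference and both responses that make it up are therefore given below as a description, with no test for the members.

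The cells were mouse embryo fibroblasts (MEFs) of strain 129/Sv, connective tissue cells of the embryo grown in culture. The 4 groups were wt treated with doxorubicin at 0.2 µg/ml for 6 h (wt dox, 3 libraries), untreated wt (wt ut, 3 libraries), p53-/- given the same treatment (p53-/- dox, 2 libraries) and untreated p53-/- (p53-/- ut, 2 libraries). Doxorubicin is a topoisomerase II poison that breaks DNA. Reads came from near the 3′ ends of polyadenylated transcripts. The unit of level here is CPM, counts of reads per library of 1000000 after scaling between libraries. The labels do not say whether libraries of a group came from separate embryos or cultures, so a p-value reflects how far these libraries scatter, which may be technical.

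The labels were checked against known p53 targets and against the sex-linked genes of the cells. Cdkn1a, which encodes the cell cycle inhibitor p21, averaged 4537 CPM in wt dox, 686 CPM in wt ut, 49.1 CPM in p53-/- dox and 30.4 CPM in p53-/- ut, and its difference of responses was 2.05 (SE 0.29, limma adjusted p = 0.00709). Trp53 itself averaged 32.2 CPM in wt dox, 23.2 CPM in wt ut, 36.8 CPM in p53-/- dox and 71.9 CPM in p53-/- ut, so its reads were still present in p53-/- cells and do not check the genotype. Total reads ran from 9768157 to 11770448 in wt and from 18099505 to 25970157 in p53-/- libraries. Together, 4 Y-linked genes had 147, 7 and 9 reads in wt dox libraries 1 to 3, against 166, 0 and 2 reads in wt ut libraries 1 to 3, and 136 and 15 reads in the p53-/- dox libraries numbered 1 and 2, against 207 and 216 reads in the p53-/- ut libraries numbered 1 and 2. Y-linked reads were thus high in number 1 alone of wt and in 3 of 4 p53-/- libraries, so sex was unevenly spread over the genotypes, and its part in the results was not tested. The p53-/- libraries numbered 2 thus did not match each other as a pair, and the ranges of the members' values are also given without them. Fibroblast markers were read in every group (12 of 12, summed 4760 to 9970 CPM across libraries, none at 0).

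p53 is a transcription factor that is stabilised when DNA is damaged. It activates genes such as Cdkn1a, and through p21 it is known to lower many genes of the cell cycle, whose promoters often hold CCAAT boxes, CHR elements or E2F sites. The members serve different processes: pyrimidine supply (Dhodh, Tk1), chromosome segregation and repair (2810433K01Rik, Nsmce4a), RNA processing (Exosc8, Ftsj2), protein maturation and selenium-related metabolism (Rce1, Sephs1) and chemerin signalling (Cmklr1). In RefSeq 2810433K01Rik is a synonym of Ska1 and Ftsj2 of Mrm2; the other 7 symbols matched directly.

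RefSeq promoters (GRCm38.p6, 250 bases before to 50 after each annotated start) were at hand for 7 of the members, 9 promoters in all. None was at hand for Dhodh or 2810433K01Rik, so the counts below do not cover them. Sephs1 and Rce1 had 2 promoters each, and the matches of Rce1 lay in 1 of its 2. Motifs were searched on both strands. The CCAAT box (CCAAT) was in 3 of 9 promoters against 37.4% of all 32851 promoters, the CHR (TTTGAA) in 2 of 9 against 17.9%, the E-box (CACGTG) in 2 of 9 against 7.15%, and an E2F site (TTTCCCGC, TTTCGCGC, TTTGCCGC or TTTGGCGC) in 0 of 9 against 2.26%. The p53 half-site was found in 1 of 9, at 14 bases after the start of Tk1, against 8.36% of all promoters. The second CHR lay in 1 of the 2 promoters of Sephs1, at -93. None of these matches overlapped another, and they are matches of letters, not sites. The stretches below are shown because they hold the matches in 4 of the members, with the matches in capitals. Cmklr1 has CCAAT boxes at -107 (on the reverse strand) and -81 and an E-box at -145, Rce1 a CCAAT box at -216 and an E-box at -133, Nsmce4a a CCAAT box at -74, and Ftsj2 a CHR at -176. All 4 stretches are read 5′ to 3′ on the minus strand.
Cmklr1, chr5:113643664-113643763: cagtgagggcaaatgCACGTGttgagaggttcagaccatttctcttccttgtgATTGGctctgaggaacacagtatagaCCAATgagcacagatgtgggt
Rce1, chr19:4625756-4625875: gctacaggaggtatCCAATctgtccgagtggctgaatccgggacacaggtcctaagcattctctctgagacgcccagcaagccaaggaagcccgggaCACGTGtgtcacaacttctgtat
Nsmce4a, chr7:130547422-130547481: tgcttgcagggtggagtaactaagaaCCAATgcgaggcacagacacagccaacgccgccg
Ftsj2, chr5:140332039-140332098: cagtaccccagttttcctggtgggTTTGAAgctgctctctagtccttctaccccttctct

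The 9 genes shared 1 shape across the 4 groups. In each of them every wt dox library lay below every wt ut library, which was so for 12.0% of all tested genes. Every wt ut library also lay above every p53-/- ut library (28.8% of all tested genes) and every wt dox library below every p53-/- dox library (21.8%), so the order of the genotypes turned over with treatment in 9 of 9 members, against 2.22% of all tested genes. Since the rule picked a difference of responses, these counts describe the members and support nothing. Without treatment the wt mean was between 1.78 (Tk1) and 2.42 (Cmklr1) times the p53-/- mean, and with treatment between 0.358 (Dhodh) and 0.653 (Ftsj2) times.

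**Figure D1:**
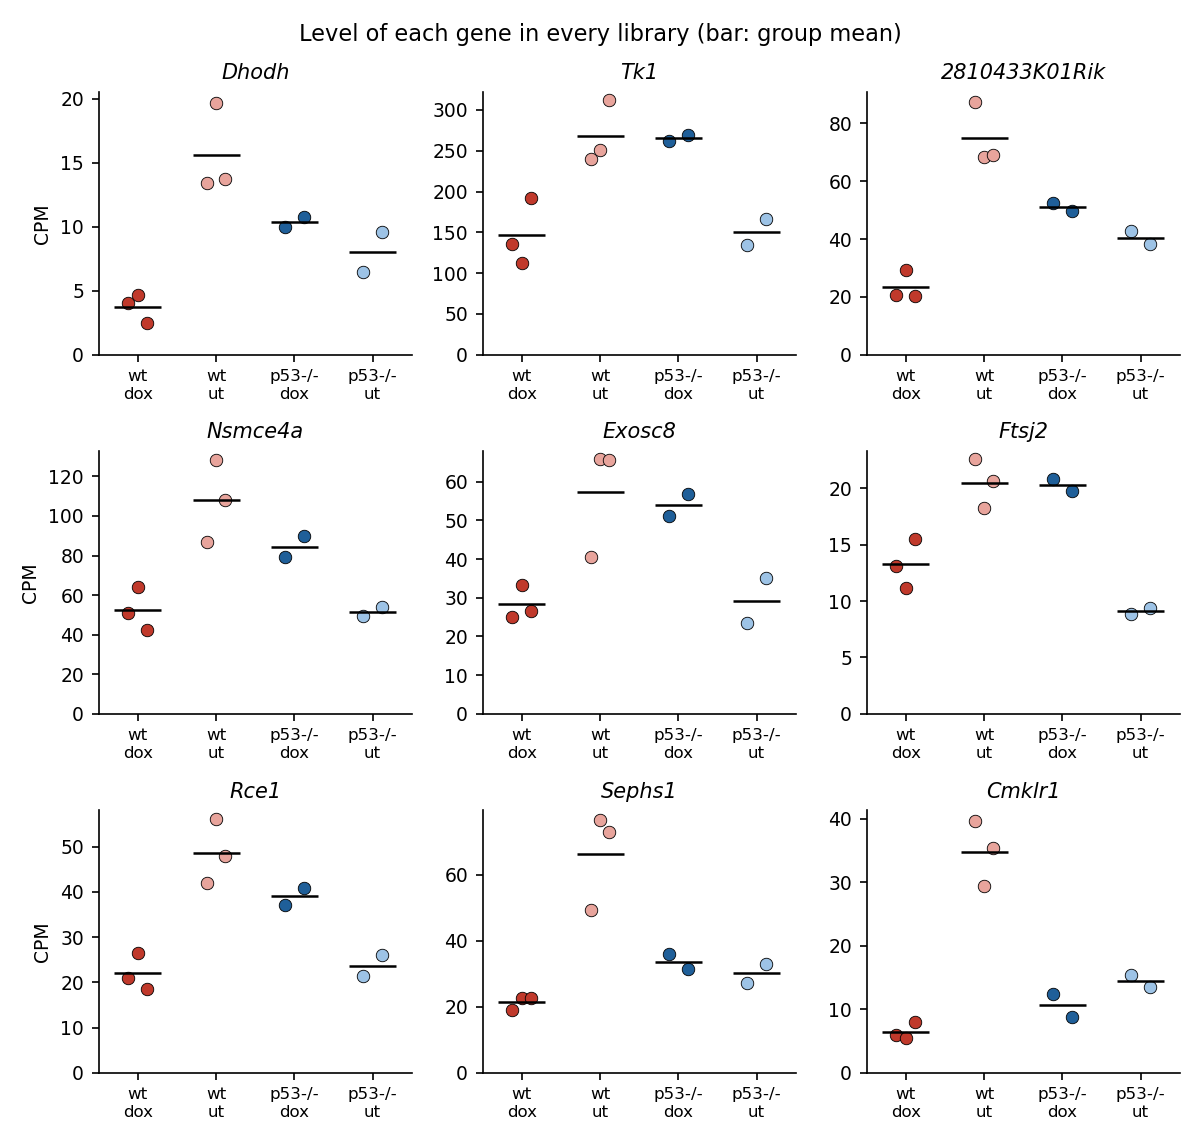
Level of each of the 9 genes (CPM, linear axis from 0) in every library, as points, with group means as bars. In each panel the 3 wt dox points lie below the 3 wt ut points, and the 2 p53-/- ut points lie below the wt ut points.

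Dhodh encodes the enzyme of the mitochondrial inner membrane that oxidises dihydroorotate to orotate, a step of pyrimidine synthesis from scratch. It had 4.02, 4.65 and 2.47 CPM in wt dox libraries 1 to 3, against 13.5, 19.7 and 13.7 CPM in wt ut libraries 1 to 3. In p53-/- dox it had 9.97 and 10.8 CPM, against 6.48 and 9.62 CPM in p53-/- ut. All wt dox values were below those of the other groups, and the p53-/- dox values lay only just above the higher p53-/- ut value. The wt response was -1.95 (SE 0.30), the p53-/- response 0.37 (SE 0.37) and the difference -2.32 (SE 0.47), the most negative of the 9. Its lowest value rests on 24 reads. In these bulk samples, fewer cells that express a gene and less of its RNA per cell cannot be told apart.

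Tk1, the cytosolic thymidine kinase that salvages thymidine and is known for its high level in S phase, had 136, 113 and 192 CPM in wt dox, against 240.5, 250.3 and 312 CPM in wt ut. In p53-/- dox there were 262 and 269 CPM, against 134 and 166 CPM in p53-/- ut. Treated p53-/- cells thus had the level of untreated wt cells, and treated wt cells that of untreated p53-/- cells, within the spread of the libraries. Its wt response was -0.89 (SE 0.22), the p53-/- response 0.83 (SE 0.27) and the difference -1.72 (SE 0.35). Tk1 overlaps Afmid in the RefSeq annotation. Afmid averaged 16.2 CPM in wt dox, 6.18 CPM in wt ut, 7.93 CPM in p53-/- dox and 6.53 CPM in p53-/- ut. The strand of the reads is not given in the sources used here, and the share of Afmid reads in the Tk1 values was not tested.

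2810433K01Rik (Ska1) encodes a subunit of the SKA complex, which holds kinetochores to spindle microtubules in mitosis. It had 20.5, 29.3 and 20.5 CPM in wt dox, against 87.5, 68.4 and 69.0 CPM in wt ut. The p53-/- dox libraries had 52.4 and 49.7 CPM, against 42.6 and 38.3 CPM in p53-/- ut. The 4 groups did not overlap: wt ut was highest, then p53-/- dox, p53-/- ut and wt dox. Its wt response was -1.67 (SE 0.21), its p53-/- response 0.33 (SE 0.26) and the difference -2.0 (SE 0.33).

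Nsmce4a encodes a non-SMC subunit of the SMC5/6 complex, a relative of cohesin and condensin that acts in repair by recombination. Its level was 50.9, 64.3 and 42.6 CPM in wt dox, against 87.0, 129 and 108 CPM in wt ut. In p53-/- dox it was 79.1 and 90.0 CPM, against 49.4 and 53.9 CPM in p53-/- ut. The wt dox and p53-/- ut ranges overlapped, and so did those of wt ut and p53-/- dox. On the log2 scale the wt response was -1.03 (SE 0.22), the p53-/- response 0.70 (SE 0.27) and the difference -1.74 (SE 0.34).

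Exosc8 encodes a subunit of the ring of the RNA exosome, the complex that trims and degrades RNA from its 3′ end. There were 24.9, 33.2 and 26.7 CPM in wt dox, against 40.5, 65.8 and 65.7 CPM in wt ut. There were 51.1 and 56.9 CPM in p53-/- dox, against 23.5 and 35.1 CPM in p53-/- ut. The wt ut library 1 stood below both p53-/- dox libraries and the other wt ut libraries above them. For Exosc8 the wt response was -0.98 (SE 0.26), the p53-/- response 0.90 (SE 0.31) and the difference -1.88 (SE 0.40). Exosc8 overlaps Supt20, listed as Fam48a, which averaged at most 1.74 CPM in a group.

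Ftsj2 (Mrm2) encodes a methyltransferase of the ribosomal RNA of the large mitochondrial subunit. It had 13.1, 11.2 and 15.5 CPM in wt dox, against 22.6, 18.2 and 20.7 CPM in wt ut. The p53-/- dox libraries had 20.8 and 19.8 CPM, against 8.88 and 9.40 CPM in p53-/- ut. The p53-/- ut libraries were the lowest of all, and treated p53-/- cells stood within the wt ut range. The wt response was -0.62 (SE 0.22), the smallest of the 9, the p53-/- response 1.11 (SE 0.26), the largest, and the difference -1.73 (SE 0.34). Ftsj2 overlaps Nudt1, which averaged 44.2 CPM in wt dox, 44.2 CPM in wt ut, 40.2 CPM in p53-/- dox and 24.2 CPM in p53-/- ut; the share of its reads in the Ftsj2 values was not tested.

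Rce1 encodes the protease of the endoplasmic reticulum that removes the end of CAAX proteins such as Ras after prenylation. Its level was 21.0, 26.4 and 18.5 CPM in wt dox, against 41.9, 56.2 and 47.9 CPM in wt ut. It was 37.2 and 40.9 CPM in p53-/- dox, against 21.5 and 26.0 CPM in p53-/- ut. The low pair, wt dox and p53-/- ut, overlapped, and the p53-/- dox libraries lay just below the wt ut range. As log2 folds, the wt response was -1.13 (SE 0.21), the p53-/- response 0.71 (SE 0.26) and the difference -1.85 (SE 0.34).

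Sephs1 encodes a homologue of the selenophosphate synthetase Sephs2. It had 19.1, 22.6 and 22.7 CPM in wt dox, against 49.3, 76.7 and 72.9 CPM in wt ut. The p53-/- libraries had 35.9 and 31.4 CPM with treatment, against 27.3 and 33.0 CPM without it. The 2 p53-/- groups overlapped, which was so for no other member: number 1 had a response of 0.39 and number 2 of -0.07. Its wt response was -1.58 (SE 0.22), the p53-/- response 0.16 (SE 0.27) and the difference -1.74 (SE 0.35).

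Cmklr1 encodes a G-protein-coupled receptor for chemerin, known from macrophages, dendritic cells and adipose tissue. It had 5.98, 5.39 and 8.03 CPM in wt dox, against 39.6, 29.4 and 35.4 CPM in wt ut. In p53-/- dox it had 12.5 and 8.81 CPM, against 15.3 and 13.4 CPM in p53-/- ut. This was the one member whose p53-/- dox libraries both lay below the p53-/- ut libraries. The wt response was -2.35 (SE 0.25), the most negative of the 9, the p53-/- response -0.43 (SE 0.31) and the difference -1.91 (SE 0.39).

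Because macrophages can be present in MEF cultures, 19 blood and macrophage markers were read beside Cmklr1. Their summed level was 54.5, 249.9 and 272 CPM in wt dox libraries 1 to 3, against 115, 540.3 and 581 CPM in wt ut libraries 1 to 3, and 166 and 112 CPM in p53-/- dox, against 162 and 137 CPM in p53-/- ut. Within each wt number the sum was lower with treatment. Of the 19 markers, 15 were tested and 0 passed in the wt response, and Emr1 was at 0 in wt ut. That fit did not use the replicate numbers as a block, so the spread between wt numbers widens its errors. No count with such a block was made for the markers, and 0 calls do not show an unchanged level. Cmklr1 did not follow the sum among untreated wt libraries: library 1 had the lowest sum and the highest Cmklr1 level. The part of macrophages in the Cmklr1 values was not tested. Of the chemerin list (Rarres2, which encodes chemerin, and the receptors Cmklr1, Gpr1 and Ccrl2), only Cmklr1 and Rarres2 had enough reads; Rarres2 had a wt response of -0.30 and a difference of -0.70, and passed in neither.

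**Figure D2:**
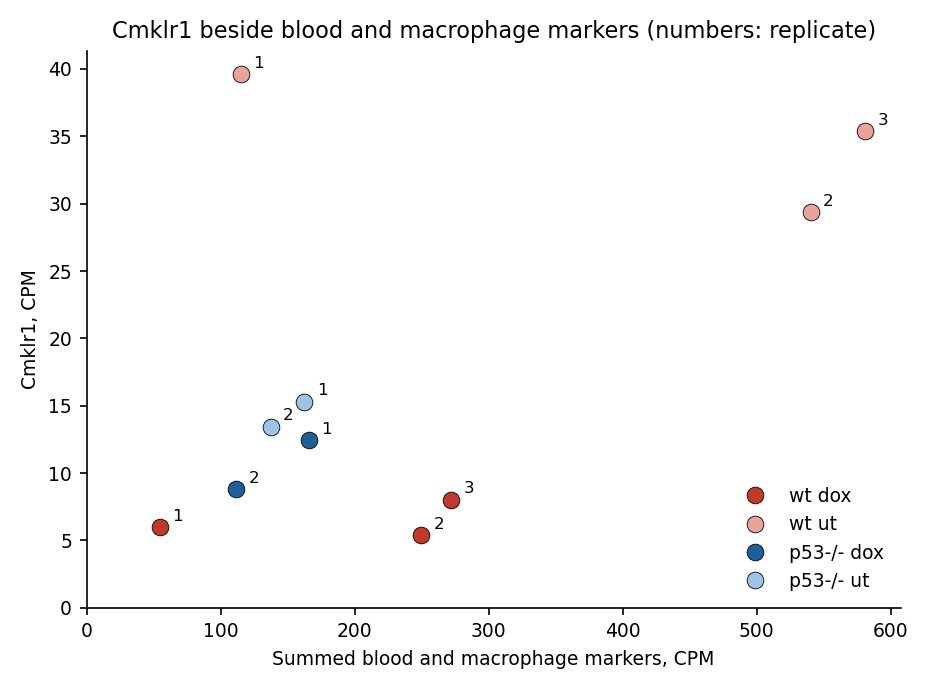
Cmklr1 level (CPM, vertical) against the summed level of 19 blood and macrophage markers (CPM, horizontal) in each library, with replicate numbers beside the points. The 3 wt ut points lie between 29.4 and 39.6 CPM of Cmklr1 at sums of 115 to 581 CPM.

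The members differed in which genotype made the difference. The wt response was 123% of the difference for Cmklr1, where both genotypes were lower with treatment, and 90.9% for Sephs1, 84.1% for Dhodh and 83.4% for 2810433K01Rik. It was 61.4% for Rce1, 59.4% for Nsmce4a, 52.3% for Exosc8 and 51.8% for Tk1. In Exosc8 and Tk1, treated p53-/- cells were higher than untreated ones by about as much as treated wt cells were lower. For Ftsj2 it was 35.8%, so most of that difference lay in p53-/-. In 7 of 9 members both p53-/- dox libraries lay above both p53-/- ut libraries, against 25.4% of all tested genes, and in 1 of 9 (Cmklr1) both lay below, against 28.4%. Those 7 combined a wt dox group wholly below wt ut with a p53-/- dox group wholly above p53-/- ut, as 3.34% of all tested genes did. The members' median response was -1.13 in wt and 0.70 in p53-/-, against medians over all tested genes of 0.05 in wt and -0.07 in p53-/-. Both responses share no library with each other, but each is part of the contrast that chose the members.

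**Figure D3:**
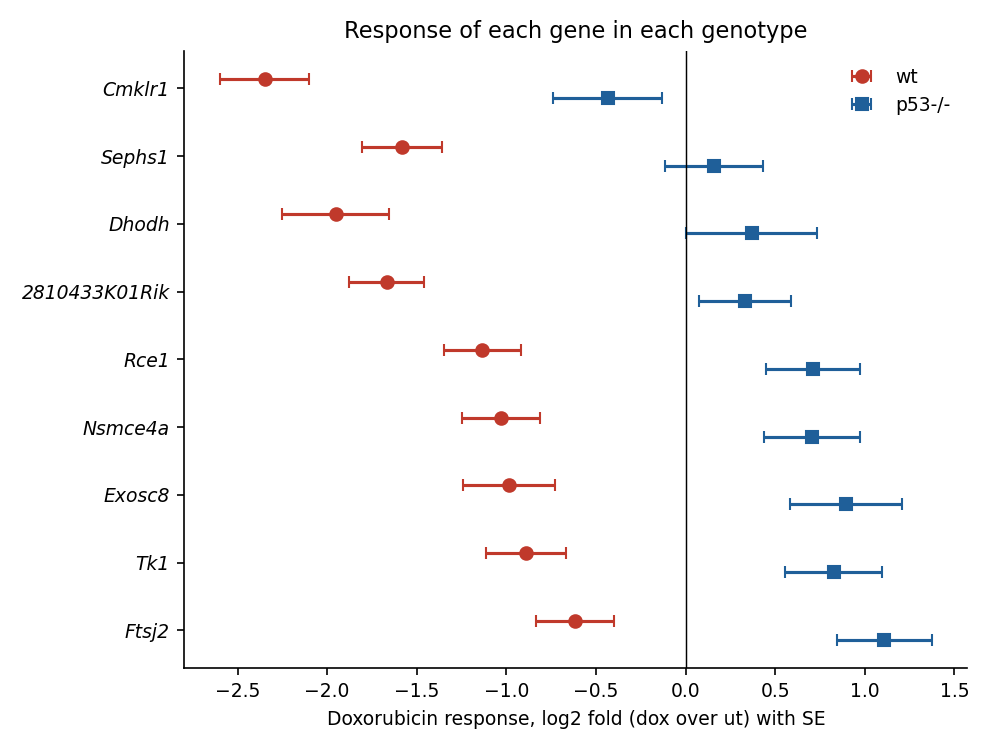
Doxorubicin response of each gene (log2 fold, treated over untreated, horizontal) in wt (circles, upper) and p53-/- (squares, lower), with bars of 1 SE from the fit. From top to bottom the wt share of the difference declines from 123% for Cmklr1 to 35.8% for Ftsj2.

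Across all tested genes, 12.6% were called in the wt response (1406 genes, 896 higher and 510 lower; limma, adjusted p under 0.05), 0.0% in the p53-/- response (0 genes, with 1255 at an unadjusted p under 0.05) and 2.34% in the difference (261 genes, 211 higher, 1.89%, and 50 lower, 0.447%). With replicate numbers as a block, 2600 genes were called in the wt response (1522 higher and 1078 lower) and 1076 in the difference (706 higher and 370 lower). Of the 50 genes called lower in the difference, 45 had a p53-/- response above 0, as 8 of the 9 members did, against 44.7% of all tested genes; a choice on a negative difference itself favours such responses. The members' median difference was -1.85, against 0.13 over all tested genes.

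**Figure D4:**
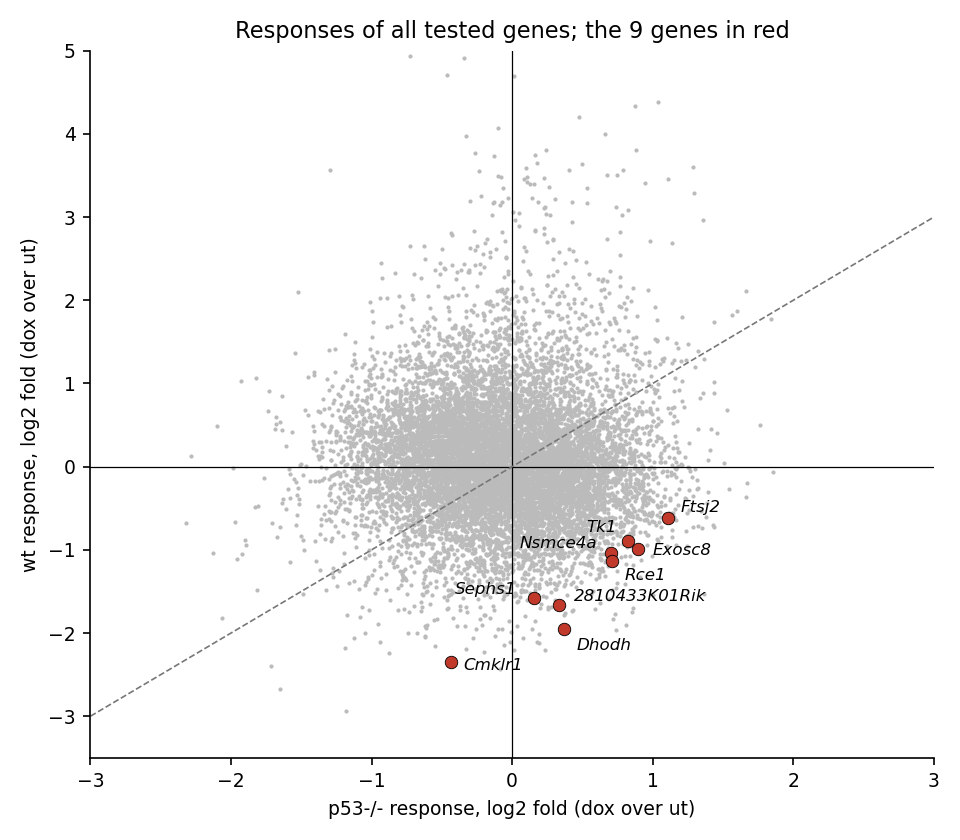
Response in wt (vertical) against response in p53-/- (horizontal), both log2 folds of treated over untreated, for all tested genes (grey) and the 9 members (red); the dashed line marks equal responses. Of the members, 8 lie right of 0 and below 0, Cmklr1 lies left of 0, and 5 genes fall outside the axes.

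Leaving out both p53-/- libraries numbered 2 moved some of the members' values. Their differences then ran from -2.53 (Dhodh, SE 0.64) to -1.71 (Nsmce4a, SE 0.47), and their p53-/- responses from -0.33 (Cmklr1) to 1.14 (Ftsj2). The p53-/- response of Sephs1 was then 0.34, against 0.16 with all libraries, and that of Dhodh 0.54, against 0.37. Over the fits that left out 1 library each, these responses ran from 0.02 to 0.29 for Sephs1 and from 0.10 to 0.63 for Dhodh. The fit without both p53-/- libraries numbered 2 has 1 library in each p53-/- group, assumed to vary like the wt libraries. The 50 calls that the members come from depended on which single library was left out. Without p53-/- ut 1, p53-/- dox 1, p53-/- ut 2 or p53-/- dox 2 alone, 0, 1, 0 and 4 genes were called lower. Without wt ut 2 or wt ut 3 there were 3 and 3 genes, and without wt dox 1, 12 genes. Without wt dox 2 or wt dox 3 there were 48 and 54, without wt ut 1 there were 92 and with the replicate block 370. With all libraries, 8 genes were called lower under upper quartile scaling, 21 under scaling by library size alone and 71 under median-of-ratios scaling.

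The genotype difference averaged over treatment, the mean of wt dox and wt ut minus the mean of p53-/- dox and p53-/- ut, was the one comparison of the members that the rule did not use; its estimate is uncorrelated with that of the difference of responses, although 1 estimate of the spread serves both. It was called for 38.0% of all tested genes (4246 genes, 16.6% higher and 21.4% lower) and for 0 of 9 members, none of which had an unadjusted p under 0.05 either. The fit took the 10 libraries as independent, although same-numbered wt libraries deviated together. The intervals of this comparison may therefore be too narrow and its share of called genes too high. The estimates ran from -0.24 for Dhodh (95% confidence interval -0.77 to 0.28, limma adjusted p = 0.431) to 0.28 for Cmklr1 (-0.16 to 0.72, adjusted p = 0.278). Of the 9, 6 were above 0 and 3 below. For Exosc8 the estimate was 0.01 (-0.44 to 0.46, adjusted p = 0.971) and for Tk1 -0.03 (-0.42 to 0.36, adjusted p = 0.906). For Ftsj2 it was 0.26 (-0.12 to 0.64, adjusted p = 0.256), the smallest adjusted p of the 9. These intervals still hold differences of more than 1.5-fold for 4 members (Dhodh, Cmklr1, Ftsj2 and Sephs1), so equal levels are not shown. Of the 41 other genes called lower in the difference, 14 were called in the genotype average. With both p53-/- libraries numbered 2 left out, the members' estimates ran from -0.24 to 0.20.

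**Figure D5:**
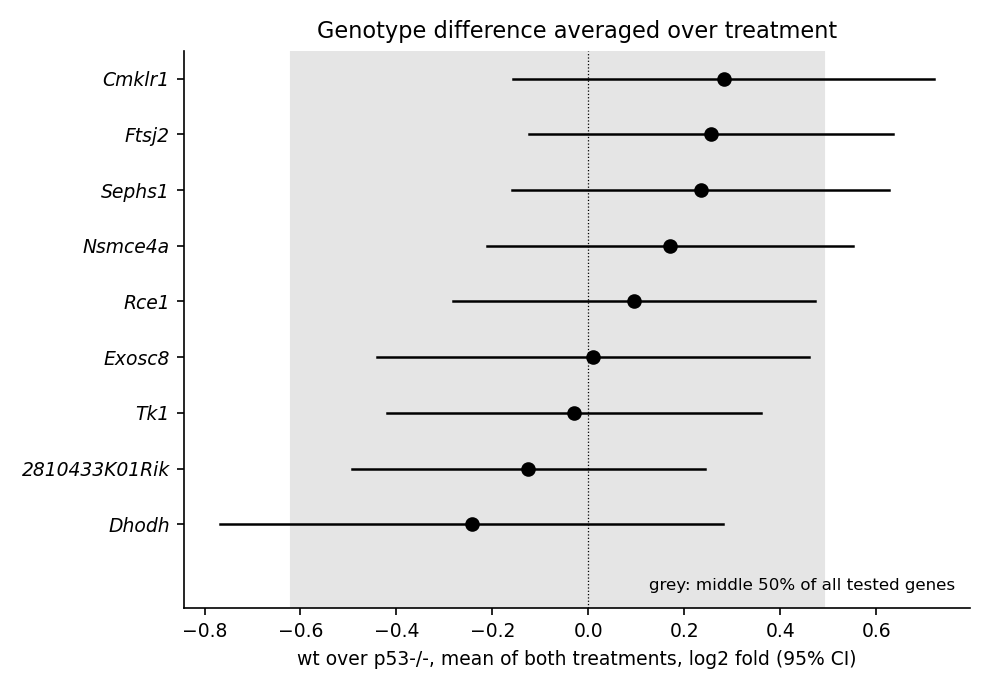
Genotype difference averaged over treatment (log2 fold, wt over p53-/-) for each member, with 95% confidence intervals; the grey band holds the middle 50% of all tested genes. Every interval includes 0.

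The other genes of the members' pathways were counted in the wt response and in the difference, leaving the members out; the background is 4.56% lower and 8.02% higher in wt. These counts come from the fit without a block. In the difference without the block, the background is 0.447% lower and 1.89% higher. With the replicate block none of these calls was lost and more were made, in numbers given at the end of each list. The background of the block counts is larger too. Of 11177 tested genes, 1522 were then higher and 1078 lower in wt, and 706 higher and 370 lower in the difference. Of 26 other genes of pyrimidine synthesis and salvage, 4 rose and 2 fell in wt, with a median of 0.14. Upp1, a uridine phosphorylase, rose by 1.63, Cda, a cytidine deaminase, by 2.17, the mitochondrial thymidine kinase Tk2 by 1.43, and Rrm2, a subunit of ribonucleotide reductase, by 1.36. Their levels were low, with means of 2.92 (Upp1), 1.70 (Cda), 0.861 (Tk2) and 5.22 CPM (Rrm2) in wt ut. Dctd, a deoxycytidylate deaminase, fell by 1.77 and the nucleoside transporter Slc29a1 fell by 0.85. Slc29a1 was the only one of the 26 that was also called in the difference (-1.47, adjusted p = 0.0422). Its mean was 49.7 CPM in wt dox, 89.4 CPM in wt ut, 82.0 CPM in p53-/- dox and 53.4 CPM in p53-/- ut, so the genotype order of the means turned as in Dhodh and Tk1. Slc29a1 was called in the contrast that chose the members, which favours such a turn, so this likeness supports nothing. With the block, 4 of the 26 rose and 5 fell in wt, and 2 were higher and 4 lower in the difference, Umps, which follows Dhodh in the pathway, among the lower ones (-1.43, SE 0.28; named after its value was seen).

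G1/S genes are the class in which Tk1 is usually placed. Of 31 tested, 0 rose and 2 fell in wt, Pold1 by 1.29 and Gmnn by 1.70, and 0 passed in the difference. The 2 are near the share of all tested genes called lower. The median of the 31 was -0.27 in wt, with 23 below 0, and -0.58 in the difference, with 22 below 0. With the block, 0 rose and 4 fell in wt, and 1 was higher and 4 lower in the difference. Of 25 other kinetochore genes, 1 rose and 2 fell in wt: Spc25, a subunit of the NDC80 complex, rose by 1.47, the microtubule depolymerase Kif2c fell by 1.44 and the kinase Aurkb fell by 1.03. Spc25 was low, with means of 3.12 CPM in wt dox and 0.790 CPM in wt ut. None of the 25 passed in the difference, whose median was 0.14. With the block, 3 rose and 3 fell in wt, and 2 were higher and 2 lower in the difference. Of 24 other genes of the SMC complexes, 0 rose and 2 fell in wt, the condensin subunit Ncapd2 by 1.36 and the SMC5/6 subunit Nsmce1 by 0.66. None of these passed in the difference either; with the block the wt counts were the same and 1, Nsmce1, was lower in the difference.

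Of 21 other exosome genes, 0 rose and 2 fell in wt, Exosc2 by 0.97 and Exosc7 by 0.63. Exosc7, another ring subunit, was called in the difference (-1.26, SE 0.28, adjusted p = 0.0489) and Exosc2 was not (-1.79, SE 0.42, adjusted p = 0.0572). Exosc7 averaged 35.7 CPM in wt dox, 55.4 CPM in wt ut, 51.1 CPM in p53-/- dox and 32.8 CPM in p53-/- ut, with wt ut and p53-/- dox as the higher groups, as in Exosc8. Its call in the contrast that chose the members favours this shape, so the likeness supports nothing. With the block, 2 of the 21 rose and 4 fell in wt, and 1 was higher and 2, Exosc2 and Exosc7, were lower in the difference. Of 19 other genes of mitochondrial RNA modification and ribosome assembly, 0 rose and 2 fell in wt, the GTPase Mtg1 by 1.65 and the helicase Dhx30 by 0.73, and 0 passed in the difference, whose median was -0.79. With the block the wt counts were the same and 1 gene was lower in the difference, Rpusd4 (-1.79, SE 0.45; named after its value was seen).

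Of 20 other genes of CAAX processing and prenylation, 1 rose and 3 fell in wt. Hras1 rose by 1.11, Lmnb2, which encodes lamin B2, fell by 1.08, Rabggtb, a subunit of the Rab prenyltransferase, fell by 1.47 and Nras fell by 0.92. In the difference Lmnb2 was lower (-1.40, adjusted p = 0.0422) and Rheb, a GTPase upstream of mTORC1, was higher (1.87, adjusted p = 0.0484), although Rheb did not pass in wt (0.67, adjusted p = 0.127). Rheb was low, with means of 2.48 CPM in wt dox, 1.37 CPM in wt ut, 2.91 CPM in p53-/- dox and 7.25 CPM in p53-/- ut. With the block, 1 rose and 4 fell in wt, and 2 were higher and 1 lower in the difference. Of 20 other genes of selenium metabolism, 1 rose in wt (Gpx3, a plasma glutathione peroxidase, by 1.68), 0 fell, and 0 passed in the difference. With the block, 4 rose and 3 fell in wt, and 2 were higher and 1 lower in the difference.

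Members resembled each other across the 10 libraries, as genes picked on the same contrast must in part. Over 36 pairs of members, Pearson's r of log2 CPM had a median of 0.81, from 0.47 for Cmklr1 with Ftsj2 to 0.99 for Rce1 with Nsmce4a. Among 5549 other genes with a mean of at least 3 on the log2 CPM scale, those closest to the members' mean profile were Trim28 (r = 0.975), Ranbp3 (0.971), Cdkn2aipnl (0.966), Tut1 (0.961) and D2Ertd750e (0.960). For single members the closest gene was Nat10 for Dhodh (0.979), Dnajc2 for Tk1 (0.957), Lmnb2 for 2810433K01Rik (0.957), Rdh11 for both Nsmce4a (0.993) and Rce1 (0.983), Plekhf1 for Exosc8 (0.979), Nup85 for Ftsj2 (0.944), Cry2 for Sephs1 (0.986) and Trib1 for Cmklr1 (0.976). These are descriptions over 10 libraries that share groups, scaling and treatment.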

How the data were processed

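Per the labels' protocols, poly(A) RNA was sequenced by a 3′ protocol; per the submitters' processing notes, the authors used DESeq and the mouse build mm9. Aligner, annotation and strand: not given in the sources used here. The deposited files hold 1 variance-stabilised value per gene on a scale close to log2. Whole reads were recovered from them: after a start of 250 reads, 99.91% of 23356 values came out whole (tolerance 0.01), and the 22 others were at 143049 reads or more, above every member (at most 8545). Recovered reads are computed, so the main fit used no count model. The limma-voom setting, which takes the recovered reads as counts, was run only as an alternative. Scaling used trimmed means of M values (30% and 5% trimmed) over genes reaching 1 CPM in 2 or more libraries, and log2(CPM + 0.5) was fitted with limma 3.58.1 (trend) in R 4.3.3, with 1 mean per group over all 10 libraries. Folds on this scale understate changes of low genes. Tests are two-sided with Benjamini-Hochberg adjustment (threshold 0.05) over all tested genes, and SE is the standard error. The steps were tested on simulated data.

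The members, and the gene lists, were chosen with earlier results of these data known. All members are named; from each list, genes called in the wt response or the difference, at most 6; and the genes most alike by Pearson's r. In wt, same-numbered libraries deviated together (correlations 0.581, 0.342 and 0.611), which meets the rule for pairs; in p53-/- the correlation was 0.385, but 2 pairs are too few for that rule and the Y-linked reads of number 2 differ. Unless another fit is named, values and SEs come from the fit without a block. Counts with the number within genotype as a block are given for the wt response, the difference and the gene lists, but not for the cell markers. The block on the list counts was added after the data were seen. With the block the members' differences were the same and their SEs smaller, from 0.25 (Tk1) to 0.36 (Dhodh). Alternatives were other scalings, added CPM, filters, the deposited values, other limma settings, a replicate block and left-out libraries. The p53 peaks were not used here, since the reference tables are on another build. Depth is the total of recovered reads and sets the counting error; the reads carry no molecular identifiers, so they may repeat molecules.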

Additional observations from a re-analysis of the deposited data

Results flagged for a closer look

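The doxorubicin response differed between wt and p53-/- for the following genes by the test of the difference itself in limma. The 9 members were chosen on it, so their values are repeated as a description: Dhodh -2.32, 2810433K01Rik -2.0, Cmklr1 -1.91, Exosc8 -1.88, Rce1 -1.85, Sephs1 -1.74, Nsmce4a -1.74, Ftsj2 -1.73 and Tk1 -1.72. From the lists of related genes, Slc29a1 (-1.47), Lmnb2 (-1.40) and Exosc7 (-1.26) were lower and Rheb (1.87) was higher in the difference. The p53 targets Ccng1 (3.30), Mdm2 (2.67) and Cdkn1a (2.05) were higher.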

How the results depend on the processing

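All 24 alternatives kept the sign of the difference of responses in every member (216 of 216 values, from -2.63 to -1.56), a sign that the choice of the members favours. Their calls in it held in 11 (Exosc8) to 19 (2810433K01Rik) of the 24. The members were chosen on these calls, so these counts describe how the choice depends on the settings and are no test. All 25 kept the sign of the wt response (225 of 225, -2.69 to -0.53) and of the p53-/- response (225 of 225, -0.65 to 1.31). Settings without trend, with a robust prior or with the replicate block leave these folds unchanged, so they could not move a sign. The same holds for the responses fitted on the wt or the p53-/- libraries alone. The ends at -2.69 in wt (Cmklr1) and 1.31 in p53-/- (Ftsj2) came from the deposited values, which are not in log2 folds of CPM. The genotype average kept its sign in 193 of 216 values (-0.57 to 0.41, the upper end again from the deposited values). One of them passed the threshold: 2810433K01Rik at -0.47 when libraries were scaled by size alone, a setting that moved the median of all genes in this comparison to -0.36 against -0.05. For the genotype average the replicate block was the number shared across genotypes, although no label links equal numbers of wt and p53-/-. That block changed no member's call, but it is no check of pairs within a genotype.

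Counts of called genes moved more. The difference called 261 genes, against 169 with upper quartile scaling, 1076 with the replicate block, 0 without both p53-/- libraries numbered 2, and 38 to 320 when 1 library was left out: 159 without wt dox 1, 99 without wt ut 2, 101 without wt ut 3, 38 and 51 without p53-/- ut 1 and 2, and 70 and 86 without p53-/- dox 1 and 2. Of its calls 80.8% were higher, against 71.9% with median-of-ratios, 91.0% with size alone and 95.3% with upper quartile scaling. The wt response called 1406 genes, against 2600 with the replicate block, 729 in wt libraries alone, 778 without both p53-/- libraries numbered 2, and 712 to 1459 with 1 library left out. The p53-/- response called 0 genes, against 2 with no filter and 0 to 1 with 1 library left out. The genotype average called 4246 genes (1855 higher and 2391 lower; 911 and 3869 with size alone, 1379 and 2733 with upper quartile scaling), against 690 without both p53-/- libraries numbered 2 and 2353 to 4564 with 1 library left out. The causes were not tested; fewer libraries alone widen the errors. With 2 libraries a group in p53-/-, small responses there are beyond the precision of these data.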
